A study of Mus musculus with 6 samples.

Results

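The genes examined here are the protein-coding genes of glutathione and thioredoxin metabolism and of the NRF2 antioxidant response in the mouse vestibular epithelium. They were chosen by symbol alone: glutathione S-transferases (Gsta, Gstk, Gstm, Gsto, Gstp, Gstt and Gstz genes), microsomal glutathione S-transferases (Mgst), glutathione peroxidases (Gpx), peroxiredoxins (Prdx), thioredoxins and their reductases, quinone reductases, haem oxygenases, catalase, sulfiredoxin (Srxn1), Slc7a11, the enzymes that make and recycle glutathione, Nfe2l2 and Keap1. The rule took 58 of the 52636 genes in the count table, and it was set with earlier results of these data known. RNA was sequenced from 3 Control and 3 IDPN animals, all male 129S1/SvImJ mice. According to the methods they were 2 to 4 months of age when exposure began, and tissue was taken on its last day. IDPN mice drank water with 30 mM 3,3'-iminodipropionitrile, a nitrile that damages the hair cells (HCs), the sensory cells of the vestibular and hearing organs, for 8 weeks, and Control mice drank plain water. Each library held the 2 utricles and 6 cristae of 1 animal, that is, HCs together with supporting cells and all other cells of the dissected tissue. The question was how antioxidant genes stood in this tissue after chronic ototoxic exposure.

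Glutathione is a small thiol that the cell spends on detoxifying electrophiles and peroxides and then recycles with NADPH, and thioredoxin is a small protein that does parallel work for oxidised proteins and peroxiredoxins. NRF2, encoded by Nfe2l2, is held low by KEAP1, which directs it to degradation, and under electrophilic or oxidative stress it escapes and, paired with a small MAF protein, activates many of these genes through the antioxidant response element. Oxidative stress is much studied in HC toxicity, and in other tissues Nqo1, Hmox1, Gclm, Srxn1 and Txnrd1 are commonly read as NRF2 targets.

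The core of the antioxidant response element was looked for as TGACNNNGC and as TGAGNNNGC, on both strands, in the RefSeq promoter windows of the GRCm38.p6 build (250 bases before to 50 bases after a transcript start). The second form can hold TGAGTCA, the motif of AP-1 factors. A window was given for 51 of the 58 genes, and 18 of them (35.3%) had a match in at least 1 window, against 30.8% of all 27025 genes with a window. Of the windows themselves, 27.9% of 68 matched, against 27.8% of all 32851. The stretches below are the matches upstream of the start in genes whose fold changes are given further on: Gclm, Txnrd1 and Slc7a11, whose IDPN libraries all lay above the Control libraries, Srxn1, which was high in a single library and has a pair of matches, and Nfe2l2, Prdx1, Txn2 and Txnrd3, whose groups overlapped. The matches of Gstm7, Mgst1 and Gstp1 lie in exons annotated as untranslated by GENCODE and are not shown. For Gstp2 only the letters and the position of the match are given. The Txnrd1 stretch lies inside the annotated span of its gene, outside its exons, and the Nfe2l2 stretch lies in an exon of the noncoding gene E030042O20Rik on the opposite strand. Each is written along the strand of its gene, with the match in capitals.
Gclm, chr3:122245403-122245451, plus strand: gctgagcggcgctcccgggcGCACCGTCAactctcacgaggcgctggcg
Txnrd1, chr10:82859094-82859142, plus strand: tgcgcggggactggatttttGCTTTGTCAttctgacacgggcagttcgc
Slc7a11, chr3:50443682-50443730, minus strand: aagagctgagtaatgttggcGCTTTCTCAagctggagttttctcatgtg
Srxn1, chr2:152105346-152105394, plus strand: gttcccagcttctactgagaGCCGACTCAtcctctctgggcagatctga
Srxn1, chr2:152105459-152105507, plus strand: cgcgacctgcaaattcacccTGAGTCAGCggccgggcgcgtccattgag
Nfe2l2, chr2:75704875-75704913, minus strand: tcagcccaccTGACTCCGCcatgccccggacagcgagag
Prdx1, chr4:116685446-116685494, plus strand: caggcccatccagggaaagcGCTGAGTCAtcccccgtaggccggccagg
Txn2, chr15:77929153-77929201, minus strand: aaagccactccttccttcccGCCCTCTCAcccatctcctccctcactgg
Txnrd3, chr6:89643839-89643887, plus strand: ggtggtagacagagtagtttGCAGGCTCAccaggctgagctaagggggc
Srxn1, Gstp1 and Gstp2 carried the same 9 letters, TGAGTCAGC, at 45 to 37, 74 to 66 and 89 to 81 bases before their RefSeq starts. Prdx1 carried GCTGAGTCA, which also holds TGAGTCA, at 133 to 125 bases. A match is a description of these letters and not a site at which a factor was measured.

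The 6 libraries held 40474847 to 43566332 estimated counts, and the genes examined took 0.631% to 0.861% of them. All 18 HC and all 10 supporting cell marker genes were detected in this tissue. The HC markers were lower after IDPN in 17 of 18 cases, with 9 downregulated (3.42% of all genes tested were). Their summed normalized counts were 60064 to 66240 in Control and 39893 to 44754 in IDPN. Supporting cell markers were lower in 9 of 10 cases, with 2 downregulated. The sums of these ran from 410972 to 603677 in Control and from 307171 to 362524 in IDPN. Macrophage markers were higher in 12 of 14 cases, with 2 upregulated and sums of 6185 to 7927 in Control and 8821 to 13377 in IDPN. Erythroid markers had sums of 16172 to 36644 in Control and 34696 to 49096 in IDPN. Of 6 tested erythroid genes, 4 were upregulated (2.32% of all genes tested were). The red cell gene Epb42 was at 0 in every library. Melanocyte markers were higher in 8 of 9 cases and downregulated in 1, with sums of 8115 to 16127 in Control and 15520 to 23379 in IDPN. Stroma markers were higher in 7 of 9, with 1 upregulated and sums of 22470 to 41619 in Control and 38089 to 40844 in IDPN. Schwann cell markers were lower in 5 of 8 cases, with 1 upregulated. Endothelial markers were lower in 6 of 8, with 1 downregulated, and dark and transitional cell markers in 6 of 8, with 1 upregulated. The part of these shifts in the values below was not tested, and in pooled tissue fewer cells of a type and less RNA per cell cannot be told apart. In their titles all Control animals carry 1 code stem, absent from the IDPN titles, and what that stem marks and the treatment cannot be told apart. IDPN 1 carries a stem of its own, and IDPN 2 and IDPN 3 share another.

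As a group, the antioxidant genes lay where the typical gene lay. Of the 52 genes with an adjusted p, 27 were higher and 25 were lower in IDPN, and the median log2-Fold_Change of IDPN against Control was 0.02, against 0.02 over all 17650 genes tested. Calls required a DESeq2 Padj (Benjamini-Hochberg adjusted p) below 0.05 together with a more than 1.5-fold difference. No member was upregulated (2.32% of all genes tested were) and 1, the peroxiredoxin Prdx4, was downregulated (3.42% of all genes tested were). At an unadjusted p under 0.05 the DESeq2 test gave 9 of the 52 (17.3%, where 16.9% of all genes tested passed), and the edgeR quasi-likelihood test called 0 in either direction (it called 1.02% of all genes up and 2.19% down). The 95% interval of the fold change lay within 2-fold in both directions for 42 of the 52 genes and within 1.5-fold for 22. The remaining 6 genes had no adjusted p: Gstp3 had no count in any library, and Gstm3, Gstt4, Gpx5, Mgst2 and Prdx6b had too few. The count of upregulated members was 1 without Control 1 (Gsta2), where 1.39% of all genes were upregulated, and 2 without Control 3 (Gclm and Txnrd1), where 3.82% were. The count of downregulated members was 0 without Control 1, without Control 2 and without IDPN 1, where 2.5%, 2.52% and 3.0% of all genes were downregulated. It was 2 without Control 3 (Prdx4 and Gstk1) and 2 without IDPN 2 (Prdx4 and Gpx2), where 4.5% and 3.28% of all genes were.

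Directions were relative to the typical gene. Scaling by total counts raised the median of all genes by 0.25 and that of the members by 0.27, to 0.28, with 43 of the 52 then higher in IDPN, and called 3 members as upregulated (Txnrd1, Gpx3 and Gsta2; 3.64% of all genes were) and 0 as downregulated (1.28% of all genes were).

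Of the 47 members that averaged 100 or more normalized counts, the 3 IDPN libraries lay above the 3 Control libraries for 6 (Gclm, Gss, Slc7a11, Txnrd1, Gstm7 and Gsto1) and below them for 3 (Prdx4, Gstk1 and Gpx8). The background over the 11736 genes at that level was 11.0% above and 13.2% below, and the members had 12.8% above and 6.38% below.

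**Figure D1:**
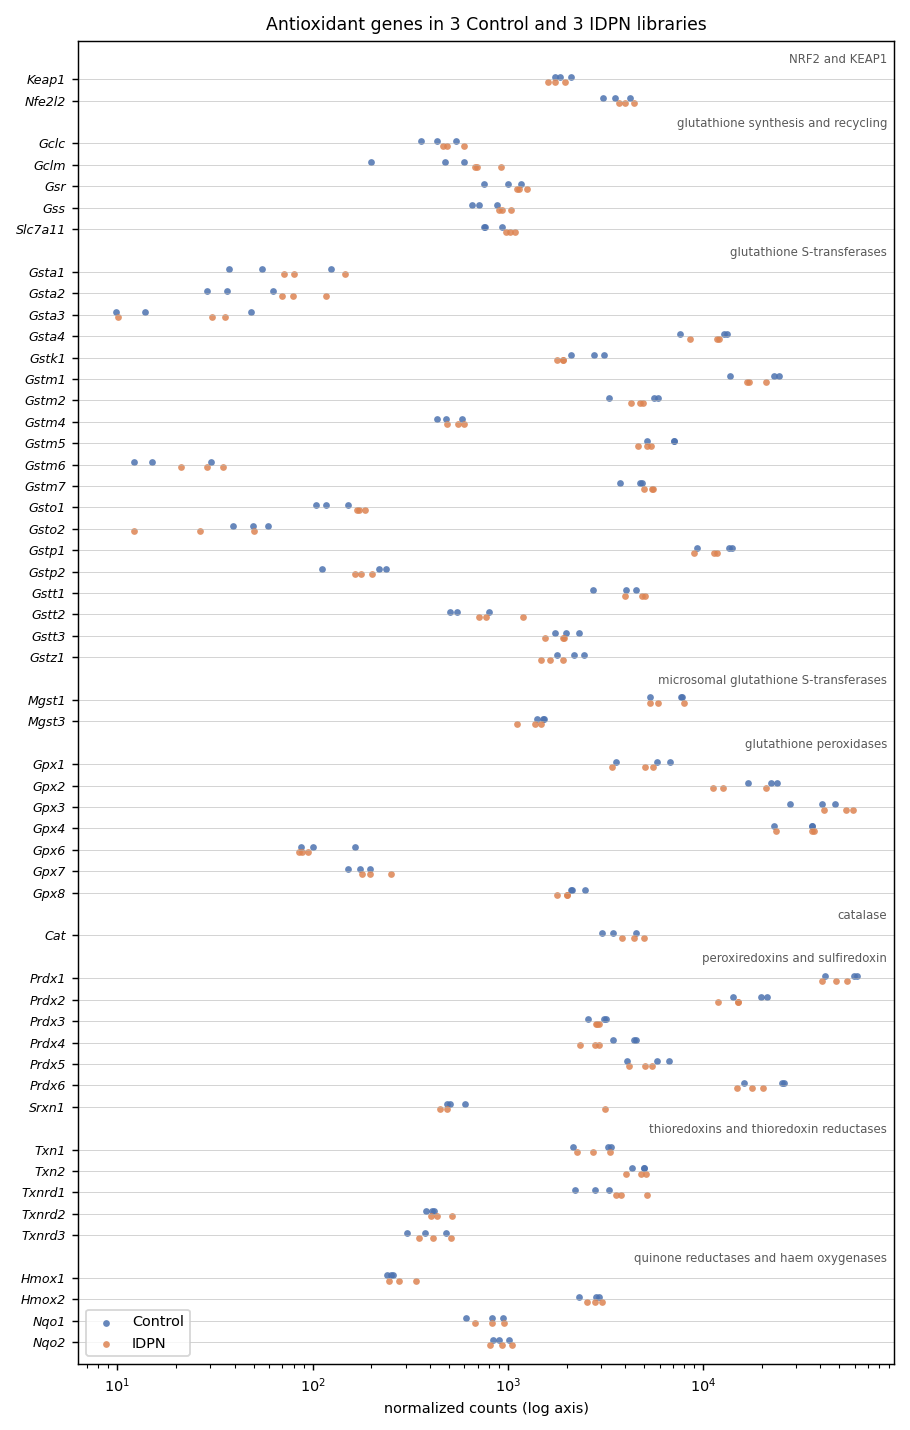
Normalized counts (log axis) of the 52 antioxidant genes with an adjusted p, grouped by role, with 1 point for each library (blue, 3 Control; orange, 3 IDPN). Levels spanned from 9.79 counts (Gsta3 in Control 3) to 61782 (Prdx1 in Control 2), and for most genes the points of the groups intermingled.

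The most abundant members, as normalized counts per kilobase of exon, were peroxidases. Gpx3, the secreted glutathione peroxidase, led with a Control mean of 21386 per kilobase. Gpx4, which reduces lipid peroxides in membranes, followed at 18438, and Prdx1, a cytosolic peroxiredoxin, at 17924. Over the Control libraries Gpx3 ran from 15321 to 26267 per kilobase, Gpx4 from 13390 to 21001 and Prdx1 from 13932 to 20303. Over the IDPN libraries they ran from 23095 to 32268, from 13758 to 21594 and from 13418 to 18053. Per kilobase, Gpx3 thus lay above both others in all 6 libraries, with ranges that overlapped in Control only. Gpx4 lay above Prdx1 in 5 of 6, with overlapping ranges in both groups. This order rests on the lengths used, which merge all annotated exons (1813 bases for Gpx3, 3043 for Prdx1). Before division by length, Prdx1 had the higher Control mean (54544 against 38773 for Gpx3). Gpx3 then had the higher IDPN mean (51375 against 47909.5 for Prdx1). Of the 76-base stretches of Gpx4, 29.6% also occur in other genes, so its level is less certain. Gstm1, Gsta4 and Gstp1, which conjugate glutathione to electrophiles, followed with Control means of 13948, 8898 and 7955 per kilobase. Gpx2, an epithelial glutathione peroxidase, Prdx2, Gstm5, Prdx6, Gpx1 and Mgst1 came next, between 6551 and 3457 per kilobase in Control. The regulators and the enzymes of glutathione synthesis lay well below, as did the quinone reductases, with Nfe2l2 at 957 and Keap1 at 405 per kilobase.

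Neither of the regulators was called. Nfe2l2 had 3560, 4244 and 3092 normalized counts in Control (animals 1, 2 and 3, an order kept in all such lists) against 3975, 4433 and 3733 in IDPN. Keap1 had 1854, 2102 and 1751 in Control and 1745, 1610 and 1960 in IDPN. The groups overlapped for both genes, with a log2-Fold_Change of 0.16 (SE 0.17, Padj = 0.735 by DESeq2) for Nfe2l2 and −0.10 (SE 0.16, Padj = 0.841 by DESeq2) for Keap1. An antisense gene overlaps 510 exonic bases of Keap1, and the strand setting of the counting is not given in the sources used here. NRF2 is controlled mainly at the level of its protein, which RNA-seq does not measure.

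The 5 genes that make and recycle glutathione were each higher in IDPN, without any of them passing the test. Their summed normalized counts were 3039, 3249 and 3948 over the Control libraries and 4345, 4339 and 4649 over the IDPN libraries, a log2 ratio of 0.38. The sums did not overlap. Their median log2-Fold_Change was 0.34, and all 5 stayed above 0 whichever of the 6 libraries was left out. Total-count scaling raised most genes, so it could not turn these 5 and adds nothing on their direction. Of all 17650 genes tested, 9116 were higher in IDPN. Gclm (chromosome 3, 122245557 to 122270732 in GRCm38), the modifier subunit of the rate-limiting glutamate-cysteine ligase, had the largest difference.

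Gclm counted 199, 477 and 593 in Control and 694, 681 and 919 in IDPN. The IDPN libraries lay above all Control libraries, of which Control 1 was far below the rest. The log2-Fold_Change was 0.85 (SE 0.31, Padj = 0.0761 by DESeq2; edgeR adjusted p = 0.213). It was 0.51 without Control 1, and without Control 3 it was 1.18 and Gclm was called (Padj = 0.0067 by DESeq2). Gclm shares 296 exonic bases with Gm17494 on the opposite strand and 244 with the pseudogene Gm6061 on its own strand. Of its 76-base stretches, 3.5% also occur in other genes. Gclc, the catalytic subunit of the same enzyme, counted 435, 360 and 540 in Control and 488, 464 and 597 in IDPN, with overlapping groups and a log2-Fold_Change of 0.21 (SE 0.22, Padj = 0.711 by DESeq2). The 2 subunits thus had different estimates, and the difference between them was not tested.

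Gss, glutathione synthetase, counted 710, 657 and 883 in Control and 1039, 904 and 934 in IDPN. Slc7a11, the transporter that brings in cystine for glutathione, counted 938, 751 and 761 in Control and 977, 1032 and 1085 in IDPN. Neither gene had overlapping groups, yet Control 3 for Gss and Control 1 for Slc7a11 came close to the lowest IDPN library. The log2-Fold_Change was 0.35 (SE 0.18, Padj = 0.304 by DESeq2) for Gss and 0.34 (SE 0.17, Padj = 0.299 by DESeq2) for Slc7a11. Gss shares exonic bases with Acss2 on the opposite strand and with antisense genes. Gsr, the reductase that regenerates glutathione, had overlapping groups and a log2-Fold_Change of 0.26 (SE 0.19, Padj = 0.556 by DESeq2).

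**Figure D2:**
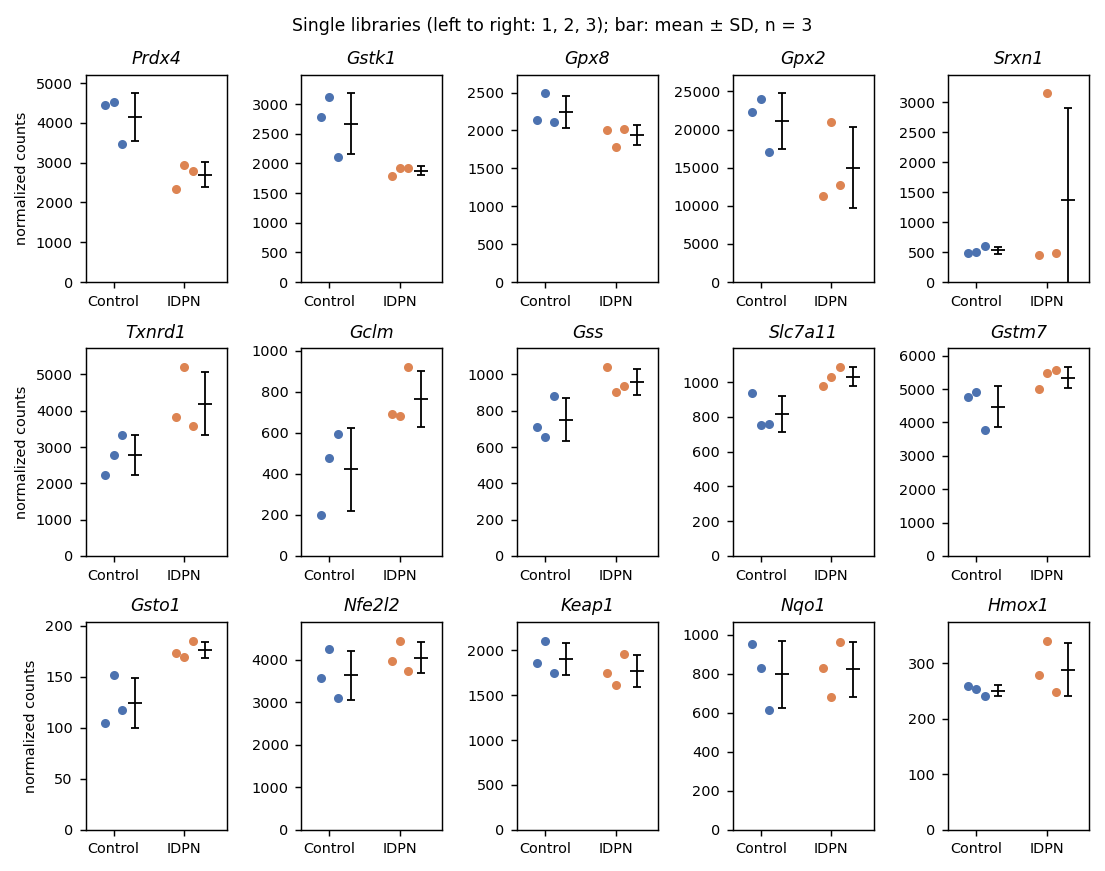
Normalized counts of 15 antioxidant genes in each library (blue, Control 1 to 3; orange, IDPN 1 to 3, left to right within a group), with the mean and SD of each group (n = 3) beside the points; each axis starts at 0. Prdx4, Gstk1 and Gpx8 were lower in all 3 IDPN libraries, Srxn1 was high in IDPN 2 alone, and Txnrd1, Gclm, Gss, Slc7a11, Gstm7 and Gsto1 were higher in all 3.

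The glutathione S-transferases, the enzymes that attach glutathione to electrophiles, numbered 22, of which 19 were tested and none was called (4 had an unadjusted p under 0.05 with DESeq2, which 16.9% of all genes had, and edgeR called none). Of these 19, 9 were higher and 10 were lower, with a range of log2-Fold_Change from −0.75 to 1.06. The abundant Gstm1 counted 24544, 23252 and 13839 in Control and 16806, 17265 and 20962 in IDPN, with overlapping groups and a log2-Fold_Change of −0.16 (SE 0.21, Padj = 0.788 by DESeq2). Control 3 was the lowest library of all for this gene.

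Gstk1 (chromosome 6, 42245935 to 42250447), a transferase of mitochondria and peroxisomes, counted 2777, 3116 and 2109 in Control and 1788, 1917 and 1929 in IDPN. The IDPN libraries lay close together and below all Control libraries, with a log2-Fold_Change of −0.51 (SE 0.18, Padj = 0.0679 by DESeq2; edgeR adjusted p = 0.125). Without Control 3 it was −0.65 and Gstk1 was called (Padj = 0.00059 by DESeq2). Gstm7 counted 4764, 4899 and 3760 in Control and 4989, 5484 and 5557 in IDPN, and its log2-Fold_Change was 0.26 (SE 0.16, Padj = 0.450 by DESeq2). Gsto1, an omega-class transferase, counted 104, 151 and 117 in Control against 173, 170 and 185 in IDPN, with a log2-Fold_Change of 0.50 (SE 0.27, Padj = 0.325 by DESeq2). Both were higher in all IDPN libraries by less than the test required.

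Gsta2, named here after its values were seen, counted 63.1, 28.9 and 36.5 in Control against 69.5, 79.3 and 118 in IDPN. Its libraries did not overlap either, and its log2-Fold_Change was 1.06 (SE 0.42, Padj = 0.119 by DESeq2), or 1.43 without Control 1, where it was called (Padj = 0.0453 by DESeq2). Of its 76-base stretches, 36.2% also occur in other genes, so RSEM's split of its reads is uncertain. The same holds for Gstp2, Gsta1 (84.5%) and Gstp1 (29.0%) among the transferases. The microsomal transferases Mgst1 and Mgst3 were lower by −0.12 and −0.16 on the log2 scale, with overlapping groups, and above 0 with total-count scaling.

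The glutathione peroxidases, which reduce peroxides with glutathione, had 7 tested members, 3 higher and 4 lower, with none called (1 had an unadjusted p under 0.05 with DESeq2, and edgeR called none). Gpx3 counted 40918, 47622 and 27778 in Control and 41871, 53752 and 58503 in IDPN. Only Control 2 lay above an IDPN library, and the log2-Fold_Change was 0.41 (SE 0.21, Padj = 0.303 by DESeq2). With total-count scaling it was 0.68 and Gpx3 was called (Padj = 0.0294 by DESeq2). Gpx4 counted 36205, 36073 and 23085 in Control and 23718, 37228 and 36321 in IDPN, so that the highest and lowest libraries of each group matched closely (log2-Fold_Change 0.03, SE 0.22, Padj = 0.972 by DESeq2).

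Gpx1, the widespread cytosolic form, had a log2-Fold_Change of −0.21 (SE 0.24, Padj = 0.757 by DESeq2). Gpx8, an endoplasmic reticulum peroxidase, counted 2135, 2488 and 2108 in Control and 2008, 1786 and 2014 in IDPN, lower in all 3 IDPN libraries by a small margin (log2-Fold_Change −0.21, SE 0.16, Padj = 0.549 by DESeq2). Gpx2, named here after its values were seen, counted 22367, 23946 and 17012 in Control and 11224, 21032 and 12675 in IDPN. IDPN 1 and IDPN 3 lay below all Control libraries and IDPN 2 among them. The log2-Fold_Change was −0.50 (SE 0.23, Padj = 0.225 by DESeq2), and without IDPN 2 it was −0.82 and Gpx2 was called (Padj = 0.00089 by DESeq2). Catalase (Cat), which breaks down hydrogen peroxide in peroxisomes, counted 4519, 3457 and 3029 in Control and 3847, 4417 and 5010 in IDPN, with overlapping groups and a log2-Fold_Change of 0.27 (SE 0.19, Padj = 0.513 by DESeq2).

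The peroxiredoxins, thiol peroxidases recharged mostly by thioredoxin, held the only called gene. Prdx4 (ENSMUSG00000025289.15, chromosome X, 155323918 to 155340754), the peroxiredoxin of the endoplasmic reticulum, counted 4447, 4532 and 3465 in Control against 2348, 2951 and 2791 in IDPN. Every IDPN library lay below every Control library, and Control 3 was the lowest of the Control libraries. Prdx4 fell by 0.62 on the log2 scale (SE 0.17, 95% interval −0.96 to −0.28, Padj = 0.00933 by DESeq2). The call did not hold with edgeR (adjusted p = 0.0685), with total-count scaling (−0.36, Padj = 0.271 by DESeq2), or without Control 1 (Padj = 0.0818 by DESeq2), Control 2 (0.106) or IDPN 1 (0.0985), nor when tested against a 1.5-fold change, and the direction was the same throughout. None of the 76-base stretches of Prdx4 occurs in another gene.

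The other peroxiredoxins were lower by smaller amounts, and none was called. Prdx2, a cytosolic form abundant in red cells, had a log2-Fold_Change of −0.39 (SE 0.19, Padj = 0.245 by DESeq2). Prdx6, which also acts on phospholipid peroxides, had −0.34 (SE 0.20, Padj = 0.400 by DESeq2). Prdx1 counted 59455, 61782 and 42394 in Control and 40831, 54936 and 47961 in IDPN, with a log2-Fold_Change of −0.19 (SE 0.19, Padj = 0.702 by DESeq2). Prdx5 (−0.17) and the mitochondrial Prdx3 (−0.04) also had overlapping groups. With total-count scaling Prdx1, Prdx3 and Prdx5 turned to slightly higher in IDPN, whereas Prdx2, Prdx4 and Prdx6 stayed lower.

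Srxn1 (chromosome 2, 152105516 to 152111376), which encodes sulfiredoxin, the enzyme that repairs overoxidised peroxiredoxins, counted 486, 507 and 601 in Control and 450, 3151 and 489 in IDPN. A single library, IDPN 2, was high, and the other IDPN libraries lay at the Control level. The log2-Fold_Change was 1.36 (SE 0.89, Padj = 0.476 by DESeq2) and −0.18 without IDPN 2. IDPN 2 also stood apart in the summed counts of 10 immediate early and stress genes (Fos, Jun, Egr1, Atf3 and others), with 312250 against 4633 and 8245 in the other IDPN libraries and 3870 to 29315 in Control, and the part of that library's state in the Srxn1 value was not tested. The TGAGTCA letters printed above for Srxn1 were also in the promoter windows of Gstp1, Gstp2 and Prdx1, for Gstp1 in an annotated exon. The log2-Fold_Change of these genes was −0.20, −0.06 and −0.19 with overlapping groups. A link between these letters and the counts was not tested.

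The thioredoxin genes comprised the thioredoxins and the reductases that recharge them with NADPH, and none of the 5 was called (1 had an unadjusted p under 0.05 with DESeq2, and edgeR called none). Txnrd1 (chromosome 10, 82833951 to 82897712), the cytosolic selenoprotein reductase, counted 2217, 2788 and 3320 in Control and 3814, 5197 and 3582 in IDPN. All IDPN libraries lay above all Control libraries, with IDPN 2 the highest. The log2-Fold_Change was 0.60 (SE 0.20, 95% interval 0.20 to 0.99), with a DESeq2 Padj of 0.0505 and an edgeR adjusted p of 0.150. The result lay at the threshold, since Txnrd1 was called with TMM factors (Padj = 0.0496 by DESeq2), with protein-coding genes only (0.0428), with total-count scaling (0.0412) and without Control 3 (0.75, Padj = 0.0068 by DESeq2), and was 0.41 without IDPN 2. Its cytosolic substrate Txn1 counted 3250, 3382 and 2164 in Control and 2263, 3334 and 2737 in IDPN, with overlapping groups and a log2-Fold_Change of −0.08 (SE 0.21, Padj = 0.916 by DESeq2). The mitochondrial Txn2 had −0.03, its reductase Txnrd2 had 0.16, and Txnrd3 had 0.13.

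The quinone reductases and haem oxygenases include the most used readouts of NRF2, and none of the 4 was called by DESeq2 (0 had an unadjusted p under 0.05) or by edgeR. Nqo1 counted 950, 826 and 613 in Control and 828, 681 and 961 in IDPN, a log2-Fold_Change of 0.05 (SE 0.22, Padj = 0.951 by DESeq2). Hmox1, the inducible haem oxygenase, counted 258, 253 and 240 in Control and 278, 339 and 247 in IDPN, a log2-Fold_Change of 0.20 (SE 0.22, Padj = 0.737 by DESeq2). Both had overlapping groups, and the 95% intervals of both lay within 2-fold. Nqo2 (0.02) and the constitutive Hmox2 (0.05) differed less, and 36.6% of the 76-base stretches of Hmox2 occur in other genes.

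**Figure D3:**
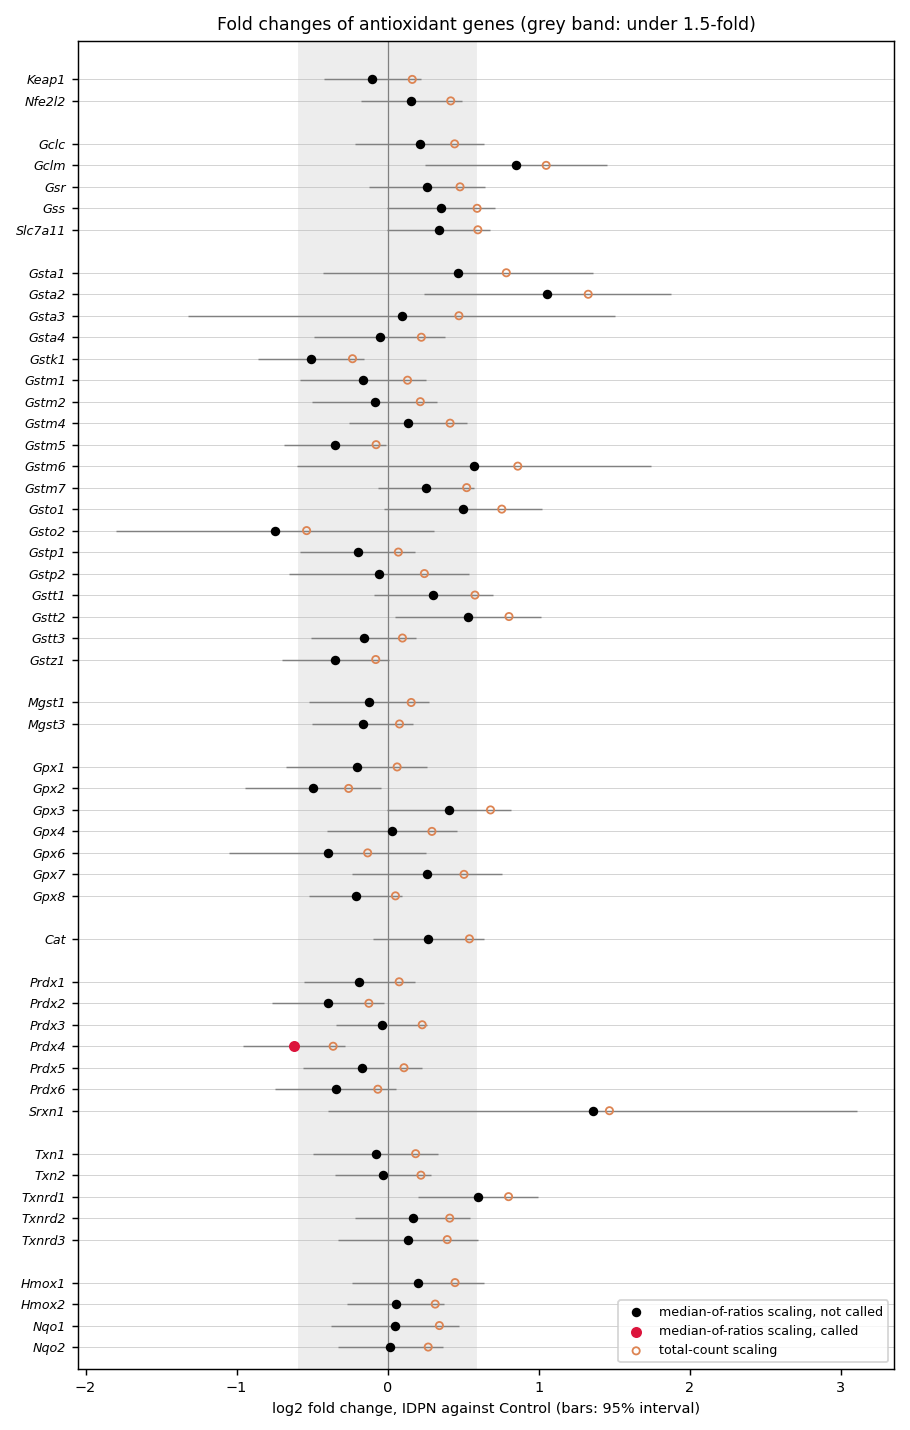
Log2-Fold_Change of IDPN against Control for the 52 antioxidant genes with an adjusted p, in the order of the roles (black, median-of-ratios scaling with its 95% interval; red, called; open circles, total-count scaling; grey band, under 1.5-fold). Prdx4 is the only called gene, the bar of Srxn1 runs from −0.39 to 3.11, and the open circles lie to the right throughout.

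Spread between animals was shared by many members. Of the 31 members with a mean of at least 1000, Control 3 was the lowest Control library for 29, the exceptions being Txnrd1 and Gsr, with a median ratio of 0.727 to the mean of Control 1 and Control 2. IDPN 1, whose title stem no other library has, was the lowest IDPN library for 24, with a median ratio of 0.808 to the mean of the others. These libraries had the largest DESeq2 size factors of their groups, 1.12 and 1.21. Leaving out Control 3 moved the median log2-Fold_Change of the members to −0.12, in a fit that called 3.82% of all genes up and 4.5% down.

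**Figure D4:**
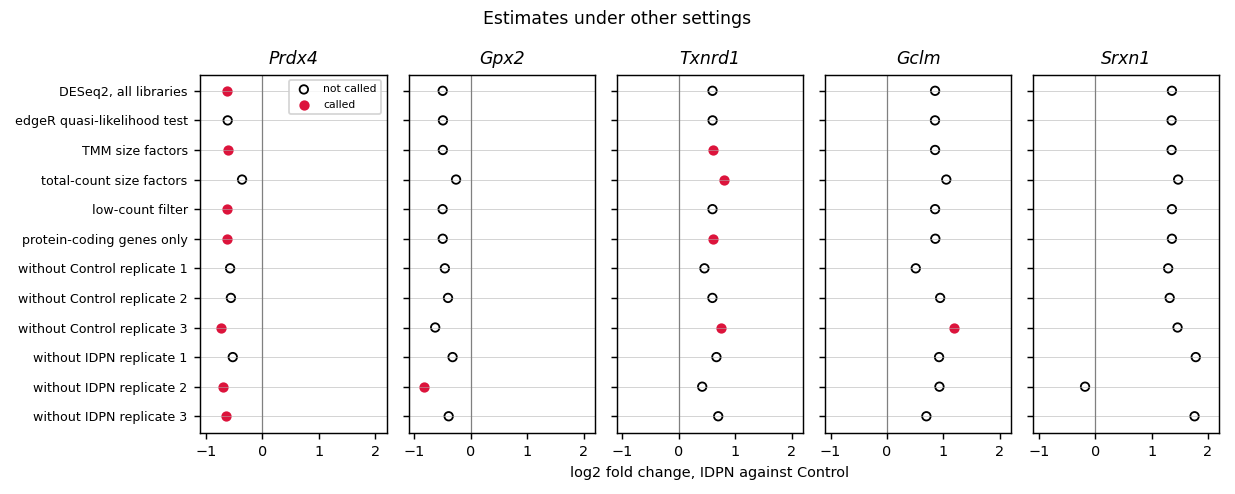
Log2-Fold_Change of 5 antioxidant genes under 12 settings: all libraries with DESeq2, 5 other fits, and 6 fits that each leave out 1 library (red, called; open, not called). The estimates of Prdx4 and Txnrd1 keep their direction while their calls come and go, and that of Srxn1 drops to −0.18 without IDPN 2.

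The other genes of the same pathways were taken from a list of 91 that had no member in common with the genes above. The list was chosen with earlier results of these data known, so its shares beside those of all genes are a description only. Of 86 tested, 5 were upregulated and 2 were downregulated, against 2.32% and 3.42% of all genes tested, and their median log2-Fold_Change was 0.01. Dpep1, a dipeptidase that cuts cysteinylglycine in glutathione breakdown, had the largest change. It counted 29.1, 39.2 and 24.0 in Control against 115, 150 and 125 in IDPN, far apart in all libraries. Its log2-Fold_Change was 2.08 (SE 0.36, Padj = 8.13e-07 by DESeq2), and it was the only upregulated gene of the list that edgeR also called and that stayed called in all 6 fits without a library.

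On the other side, Chac2, a cytosolic enzyme that degrades glutathione, counted 250, 239 and 231 in Control and 93.5, 91.4 and 123 in IDPN. The groups were wide apart and tight within, and Chac2 fell by 1.22 on the log2 scale (SE 0.25, Padj = 9.82e-05 by DESeq2), called in all 6 fits without a library. Msra, which repairs oxidised methionine with thioredoxin, counted 354, 426 and 480 in Control and 279, 206 and 202 in IDPN, and fell by 0.87 (SE 0.23, Padj = 0.00477 by DESeq2), but was not called without IDPN 3 (−0.79, Padj = 0.0594 by DESeq2) or with total-count scaling. EdgeR called both.

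The remaining upregulated genes were less stable. Glrx5, a mitochondrial glutaredoxin of iron-sulfur cluster assembly, rose by 0.88 (SE 0.26, Padj = 0.0196 by DESeq2), from 212, 403 and 485 to 663, 729 and 638, and of the 6 fits stayed called only without Control 3. Mafg, a small MAF partner of NRF2, rose by 0.72 (SE 0.22, Padj = 0.0197 by DESeq2), from 380, 343 and 465 to 545, 789 and 622, and stayed called only without Control 3 or IDPN 1. Ptges, a glutathione-dependent prostaglandin E synthase, rose by 0.66 (SE 0.18, Padj = 0.00951 by DESeq2), from 1465, 1555 and 1454 to 2111, 2935 and 2017, and lost its call without Control 1, Control 2 or IDPN 2. Akr1b8, an aldo-keto reductase, rose by 0.82 (SE 0.27, Padj = 0.0467 by DESeq2), from 107, 95.8 and 91.6 to 146, 179 and 193, and stayed called in none of the 6. For each of these the IDPN libraries lay above all Control libraries, and edgeR called none of them. The list had 1 upregulated gene without Control 1 or Control 2 (1.39% and 1.41% of all genes), 2 without IDPN 2 or IDPN 3 (1.35% and 1.57%), and 1 downregulated gene without IDPN 3 (2.75%).

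Mafk, Maff and Sesn2, named here after their values were seen, were also highest in IDPN 2. Mafk, another small MAF protein, counted 571 to 589 in Control and 506, 2288 and 624 in IDPN 1 to 3. Maff counted 7.12 to 11.5 in Control and 7.45, 84.3 and 19.6 in IDPN. Sesn2, a stress-induced sestrin, counted 173 to 189 in Control and 185, 372 and 202 in IDPN. Each also lay above the Control libraries in IDPN 3, and Maff was called as upregulated without IDPN 1. Txnip, the thioredoxin inhibitor, also named after its values were seen, counted 41510, 51282 and 26020 in Control and 33077, 17372 and 29685 in IDPN. The groups overlapped through the low Control 3, with a log2-Fold_Change of −0.57 (SE 0.26, Padj = 0.210 by DESeq2), and without Control 3 it was called as downregulated.

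**Figure D5:**
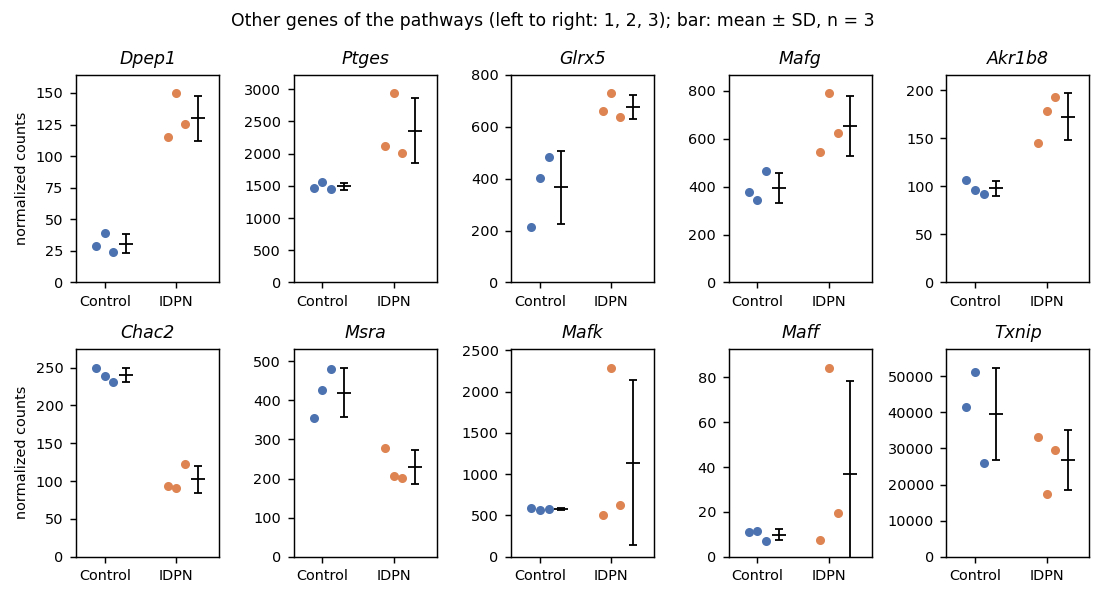
Normalized counts of 10 other genes of the pathways in each library (blue, Control 1 to 3; orange, IDPN 1 to 3, left to right), with the mean and SD of each group (n = 3); each axis starts at 0. Dpep1, Ptges, Glrx5, Mafg and Akr1b8 were higher and Chac2 and Msra were lower in all IDPN libraries, Mafk and Maff were high in IDPN 2, and the groups of Txnip overlapped.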

How the data were processed

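Total RNA of the vestibular epithelium (6 to 11 ng) was copied by SMART-seq2 from an oligo-dT primer, with 8 and 12 amplification cycles and no molecular identifiers. According to the methods and the submitters' processing notes, the authors aligned the reads to GRCm38 with STAR 2.5.3a and estimated counts with RSEM 2.3.0. The authors deposited whole-number estimated counts (expected counts of RSEM) without normalization, 40474847 to 43566332 in each library. Intervals are 1.96 DESeq2 standard errors to each side of the estimate. These errors draw on the spread between the 3 animals in each group and on that of other genes.

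Counts were tested with DESeq2 1.42.0 in R 4.3.3 (Wald test, median-of-ratios size factors, no covariate, Benjamini-Hochberg adjustment over all genes). A gene was called at Padj under 0.05 and a fold change above 1.5. EdgeR 4.0.16 (quasi-likelihood test, TMM factors) was the first alternative, and other scalings, filters, a test against 1.5-fold and leaving out each library were also run. Gene coordinates and exon lengths came from GENCODE on GRCm38, a later release than the authors used, and promoter sequences from RefSeq on GRCm38.p6. Stretches of 76 bases, the read length, were compared between transcripts.

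The members and lists were chosen with earlier results of these data known. Named members were those called, those with a mean of at least 100 and no overlap between groups, the most abundant per length of each role, and central genes by function. The pathway genes named were those called. The code was tested on simulated counts. The labels say nothing of the counting strand, and replicate libraries come from separate animals. 1 marker gene of a list is not reported here.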

Additional observations from a re-analysis of the deposited data

How the results depend on the processing

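With 3 animals in each group, changes under 1.5-fold were mostly within the error. Of 504 pairs of a named gene and an alternative, 440 kept the direction and the side of the threshold of the DESeq2 fit, 37 lost a call, 7 gained one and 20 turned direction. The fits that changed only the filtering of results or the tested fold reuse the main estimate, so no direction could turn in them. Most named genes were not called in the DESeq2 fit and kept their side by staying uncalled. Which cause lay behind a lost or gained call was not tested. Among the members, the count of upregulated genes was 1 with TMM factors (2.42% of all genes) and 3 with total-count scaling (3.64%). It was 1 with protein-coding genes only (2.52% of those tested), and 0 to 2 when a library was left out (1.35% to 3.82% of all genes). The count of downregulated genes was 0 with edgeR (2.19% of all genes), 0 with total-count scaling (1.28%) and 0 when tested against a 1.5-fold change (0.582%). It was 0 to 2 when a library was left out (2.5% to 4.5%). On the pathway list, upregulated genes numbered 1 with edgeR (1.02% of all genes), 1 when tested against a 1.5-fold change (0.178%) and 1 to 5 without a library. Downregulated genes numbered 1 with total-count scaling, 0 against a 1.5-fold change and 1 to 3 without a library, beside the same shares as for the members. The median log2-Fold_Change of the members was 0.28 with total-count scaling and −0.12 to 0.11 without a library.

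With total-count scaling, which raised most genes alike by construction, the log2-Fold_Change turned positive for Gpx1 (0.063), Gpx8 (0.052), Gstm1 (0.13), Keap1 (0.16), Mgst1 (0.16), Prdx1 (0.077), Prdx3 (0.23), Prdx5 (0.11) and Txn1 (0.19). Leaving out a library turned the direction of small estimates in Gpx4 (−0.16 to 0.22), Hmox2 (−0.042 to 0.12), Nqo1 (−0.11 to 0.19), Prdx3 (−0.13 to 0.010) and Txn1 (−0.25 to 0.056), and of Srxn1 (−0.18 to 1.78). No paired analysis was possible because the labels give no replicate numbers or pairing.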

Other observations

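Other groups of the pathway list held few called genes. The enzymes that supply NADPH, the reductant of glutathione and thioredoxin reductases, had 9 tested members, of which 8 were lower and 1 was higher in IDPN, with a median log2-Fold_Change of −0.24, and none was called by DESeq2 (1 had an unadjusted p under 0.05) or by edgeR. With total-count scaling 5 of the 9 were higher. The genes that supply selenocysteine, which Gpx1 to Gpx4 and the thioredoxin reductases carry in their active site, had 8 tested members, 5 higher and 3 lower, with a median of 0.08 and none called by DESeq2 (0 at an unadjusted p under 0.05) or by edgeR.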
